A study of Mus musculus with 2 samples.

Results

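Collagens are the main structural proteins of the extracellular matrix, and each is assembled from chains encoded by separate genes. All genes whose symbol is Col, a number, a and a number were taken, and 37 of the 16098 genes listed in both the colon and the small intestinal library met this rule. By the kind of assembly the chain enters, 9 were fibrillar, 6 belonged to the basement membrane network of type IV collagen, 6 to type VI collagen and 16 to other collagens. Another 3 chains were listed in the small intestine alone, with 10 to 37 unique molecular identifiers (UMIs, the count of distinct captured transcripts) in the whole library.

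Fibrillar collagens I, III and V form the cable-like fibrils that give the gut wall its tensile strength, and fibroblasts are their main source. Type IV chains assemble into the sheet-like network beneath epithelium and around vessels and muscle cells, where the Col4a1 and Col4a2 chains are widely used and the other type IV chains are restricted to particular membranes. Type VI collagen forms beaded filaments at the border of cells and fibrils, and the remaining chains decorate fibrils, span the plasma membrane or sit at basement membranes.

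Stromal cells were sorted from healthy, untreated mouse colon and small intestine as live cells negative for the epithelial marker EpCAM and the leukocyte marker CD45, and were profiled by droplet sequencing of transcript 3' ends. Each tissue gave 1 library. The labels read here state no strain, age, sex or number of animals, and the enzymatic digestion with collagenase XI and dispase lasted 60 min for colon and 45 min for small intestine. The colon library held 6018 cells with 40684070 UMIs (median 6598 per cell), and the small intestinal library held 9359 cells with 58134526 UMIs (median 5943 per cell). Tissue, animal, digestion time and library cannot be told apart in this design, so no test was made and no p-value is given. Intervals are 95% intervals of counting error alone. In colon, 1751 cells had UMIs of 4 Y-linked genes but none of Xist (called Y-only cells here), 2700 had Xist but no Y-linked UMIs (Xist-only cells), 154 had both and 1413 neither.

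Cells carried the authors' labels. Colon and small intestine held 3631 and 2823 CD81- fibroblasts (CD81- FBs), 875 and 1913 trophocytes (CD81+ fibroblasts of the deeper mucosa and submucosa), 1105 and 1109 subepithelial myofibroblasts (SEMFs, the PDGFRA-high fibroblasts beneath the epithelium), 217 and 2498 lymphatic endothelial cells (LECs), 53 and 524 blood endothelial cells (BECs, in colon the sum of 3 vessel labels) and 125 and 468 smooth muscle cells (SMCs). The markers of LECs and SMCs were all highest under their own label in both libraries, 6 of 6 each. SEMF markers were highest there for 7 of 8 genes in colon and 6 of 8 in small intestine, trophocyte markers for 5 of 7 in each, and BEC markers for 6 of 7 and 5 of 7. The CD81- FB list was highest under its label for 3 of 5 genes in colon and 0 of 5 in small intestine, so small intestinal cells are called CD81- FBs here by the authors' label alone. Levels are given as CPM, the UMIs of a gene per 1000000 UMIs of that label in that library, and a log2 ratio is colon over small intestine. In small intestine the CD81- FB list summed to 12462 CPM in SMCs, where 2 of its 5 genes were highest, and to 12236.5 CPM in CD81- FBs. In colon SMCs it summed to 1887 CPM. At least 2 of 4 muscle markers were found in 122 of 125 colon SMCs and 360 of 468 small intestinal SMCs. The part of fibroblast RNA or cells in the SMC ratios was not tested. Ratios were compared for genes that had 100 or more UMIs when the libraries were added. Over all such genes, the median log2 ratio lay below zero in every label, from -0.33 in SEMFs to -0.11 in trophocytes, and was -0.17 with the 3 fibroblast labels pooled.

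Collagen chains together were lower in colon than in small intestine in trophocytes, CD81- FBs and SMCs, and close between the tissues in SEMFs. In trophocytes all chains summed to 11561 CPM in colon and 24766 CPM in small intestine, a log2 ratio of -1.10 (-1.11 to -1.09). In CD81- FBs the sums were 13149.5 and 17781 CPM, with a log2 ratio of -0.44. SMCs held 7743 and 10973 CPM, a log2 ratio of -0.50. The SEMF sums of 13226 and 13757 CPM gave a log2 ratio of -0.06, which turned to 0.28 once the median gene of that label was taken as the zero. The order of the fibroblast labels thus differed between the libraries: trophocytes held the least collagen of the 3 in colon and the most in small intestine.

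Each cell's own collagen share also placed trophocytes lowest of the fibroblasts in colon and highest in small intestine. The median share of a cell's UMIs that came from collagen chains was 1.06% in colon trophocytes (quartiles 0.792% and 1.38%) and 2.31% in small intestinal trophocytes (1.77% and 3.03%). The quartile ranges of these groups did not overlap. CD81- FBs had medians of 1.23% in colon and 1.68% in small intestine, and SEMFs had 1.21% and 1.33%. SMCs followed with 0.652% and 0.968%. The median LEC devoted 0.156% of its UMIs to collagen in colon and 0.194% in small intestine, and the median BEC 0.198% and 0.106%.

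**Figure D1:**
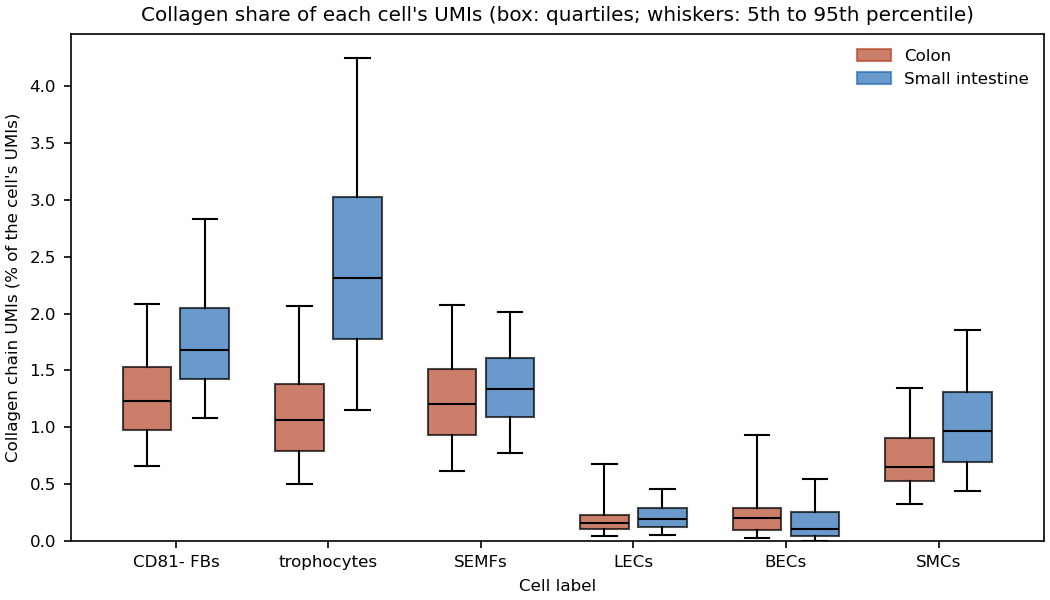
Share of each cell's UMIs that came from the 37 collagen chains (y axis, percent) by cell label (x axis) and tissue (colour), with boxes at the quartiles and whiskers from the 5th to the 95th percentile of cells. The small intestinal trophocytes have the highest box, with a median of 2.31%, and both endothelial labels lie far below the fibroblasts in both tissues.

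With the fibroblast labels pooled (5611 colon and 5845 small intestinal cells), 31 of the 37 chains had 100 or more UMIs when the libraries were added. Of these, 11 were at least 2-fold lower in colon, where 9.47% of all genes with as many UMIs were, and 2 were at least 2-fold higher, where 6.88% of all genes were. The median log2 ratio of the 31 chains was -0.57, beside -0.17 over all genes. The summed fibrillar chains had a log2 ratio of -0.70 (8163 CPM in colon, 13285 CPM in small intestine), type VI chains -0.62 (1973 and 3029 CPM) and the other chains -0.52 (1530 and 2191 CPM). Basement membrane chains were level between the tissues, at 1236 and 1163 CPM, a log2 ratio of 0.09 that became -0.011 when the 3 labels were weighted equally. The other 6 chains, Col6a6, Col7a1, Col9a3, Col11a2, Col17a1 and Col25a1, had 15 to 35 UMIs in colon fibroblasts and 18 to 44 in small intestinal ones, too few to compare.

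**Figure D2:**
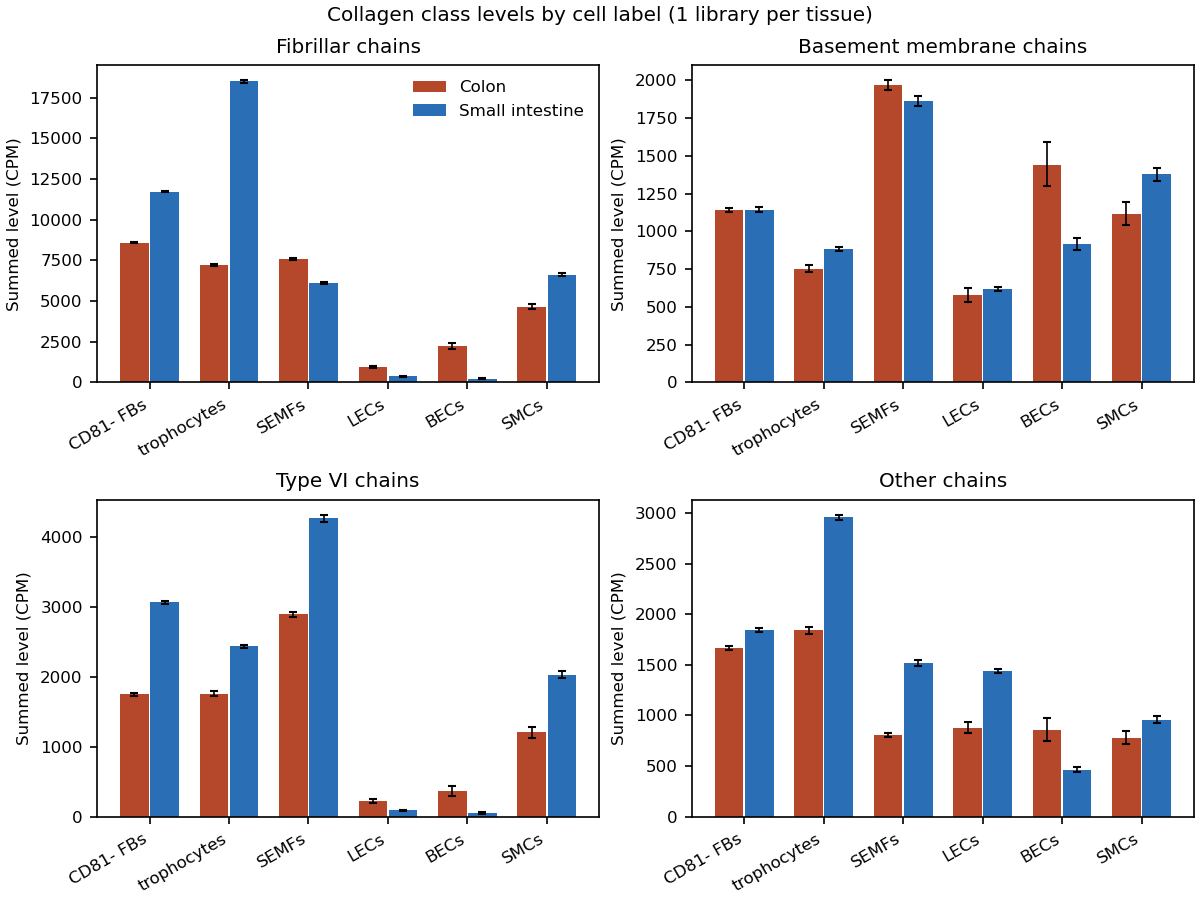
Summed CPM of the fibrillar, basement membrane, type VI and other chains (y axis, from 0, a separate scale for each class) by cell label (x axis) and tissue (colour), with 95% Poisson intervals for counting error. Fibrillar chains reach 18490 CPM in small intestinal trophocytes against 7206 CPM in colon trophocytes, while basement membrane chains are highest in SEMFs of both tissues.

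The fibrillar class differed in direction among the fibroblast labels. Its sum was lower in colon in trophocytes (7206 and 18490 CPM, log2 ratio -1.36) and in CD81- FBs (8593 and 11727 CPM, -0.45), and higher in colon in SEMFs (7551 and 6106 CPM, 0.31). Fibrillar chains made up 74.7% of all collagen UMIs in small intestinal trophocytes and 62.3% in colon ones. In SEMFs the shares were 44.4% in small intestine and 57.1% in colon.

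Type I collagen, the most abundant collagen of most tissues, is built from the Col1a1 (chr11:94936224-94953042) and Col1a2 (chr6:4504814-4541544) chains, both given on the mm10 build. Col1a1 was at 1478 CPM in colon trophocytes and 5149 CPM in small intestinal trophocytes, a log2 ratio of -1.80 (-1.83 to -1.77). In CD81- FBs it was at 1536 and 2788 CPM (-0.86), in SMCs at 567 and 1443 CPM (-1.35), and in SEMFs at 1421 and 1431 CPM (-0.01). Colon fibroblast labels thus lay within a narrow range of Col1a1, while small intestinal trophocytes stood above every other label. Col1a2 followed it, with log2 ratios of -1.58 in trophocytes, -0.68 in CD81- FBs, -0.30 in SEMFs and -1.07 in SMCs. The number of Col1a1 UMIs per Col1a2 UMI was 0.821, 0.780 and 0.736 in colon CD81- FBs, trophocytes and SEMFs. It was 0.934 and 0.911 in the small intestinal CD81- FBs and trophocytes, and 0.600 in the SEMFs.

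Col3a1 (chr1:45311538-45349706), the sole chain of type III collagen, parted from type I in SEMFs. SEMFs held 3238 CPM of it in colon and 1193 CPM in small intestine, which is a log2 ratio of 1.44 (1.40 to 1.48). In trophocytes the direction was the opposite, at 3101 and 6404 CPM (-1.05), and this ratio fell short of 2-fold against the median gene, at -0.93. In CD81- FBs it was at 4145 and 4658 CPM (-0.17), and SMCs held 2783 and 2758 CPM (0.01). Small intestinal SEMFs had 0.833 Col3a1 UMIs per Col1a1 UMI (0.809 to 0.859) and colon SEMFs 2.28 (2.23 to 2.33). Every other label in both tissues had more Col3a1 than Col1a1 UMIs, among fibroblasts from 1.24 in small intestinal trophocytes to 2.70 in colon CD81- FBs, and 4.91 in colon SMCs.

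The Col3a1 upstream sequence is shown because this chain had the largest tissue difference between fibroblast labels among the abundant fibrillar chains. It is the RefSeq window on GRCm38.p6, plus strand, chr1:45311288-45311537, the 250 bases before the annotated start, with the letters TATAAA in capitals.
Col3a1: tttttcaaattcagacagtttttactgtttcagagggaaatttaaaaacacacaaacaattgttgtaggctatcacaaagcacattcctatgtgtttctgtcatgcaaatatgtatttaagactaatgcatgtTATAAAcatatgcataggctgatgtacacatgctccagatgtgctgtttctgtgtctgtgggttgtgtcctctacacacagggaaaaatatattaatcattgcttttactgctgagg
The letters TATAAA occur on either strand in 12.3% of 32536 such windows of all genes, and in 4 of the 32 windows of 30 collagen chains.

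Of the type V chains, which sit inside type I fibrils and control their width, Col5a2 differed most in trophocytes and CD81- FBs. Col5a2 was at 343 and 821 CPM in trophocytes (-1.26), 512 and 712 CPM in CD81- FBs (-0.48) and 415 and 424 CPM in SEMFs (-0.03). Col5a1 stayed within 2-fold in all 3 fibroblast labels, with log2 ratios of -0.38, -0.30 and 0.15 in that order, and Col5a3 with -0.04, 0.21 and -0.13. In SMCs, Col5a1 was at 107 and 219 CPM (-1.03), while Col5a2 (-0.49) and Col5a3 (-0.67) were within 2-fold.

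The minor fibrillar chains Col24a1 and Col27a1 were SEMF chains by level. In SEMFs, Col24a1 was at 51.0 CPM in colon and 205 CPM in small intestine (-2.0, -2.17 to -1.84), and at 15.5 and 13.8 CPM in CD81- FBs. Its pooled fibroblast ratio of -0.95 moved to -1.65 when the labels were weighted equally. Col27a1 was at 110 and 107 CPM in SEMFs, 69.3 and 55.8 CPM in CD81- FBs and 15.1 and 10.7 CPM in trophocytes, so its order across the 3 fibroblast labels was the same in both tissues.

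**Figure D3:**
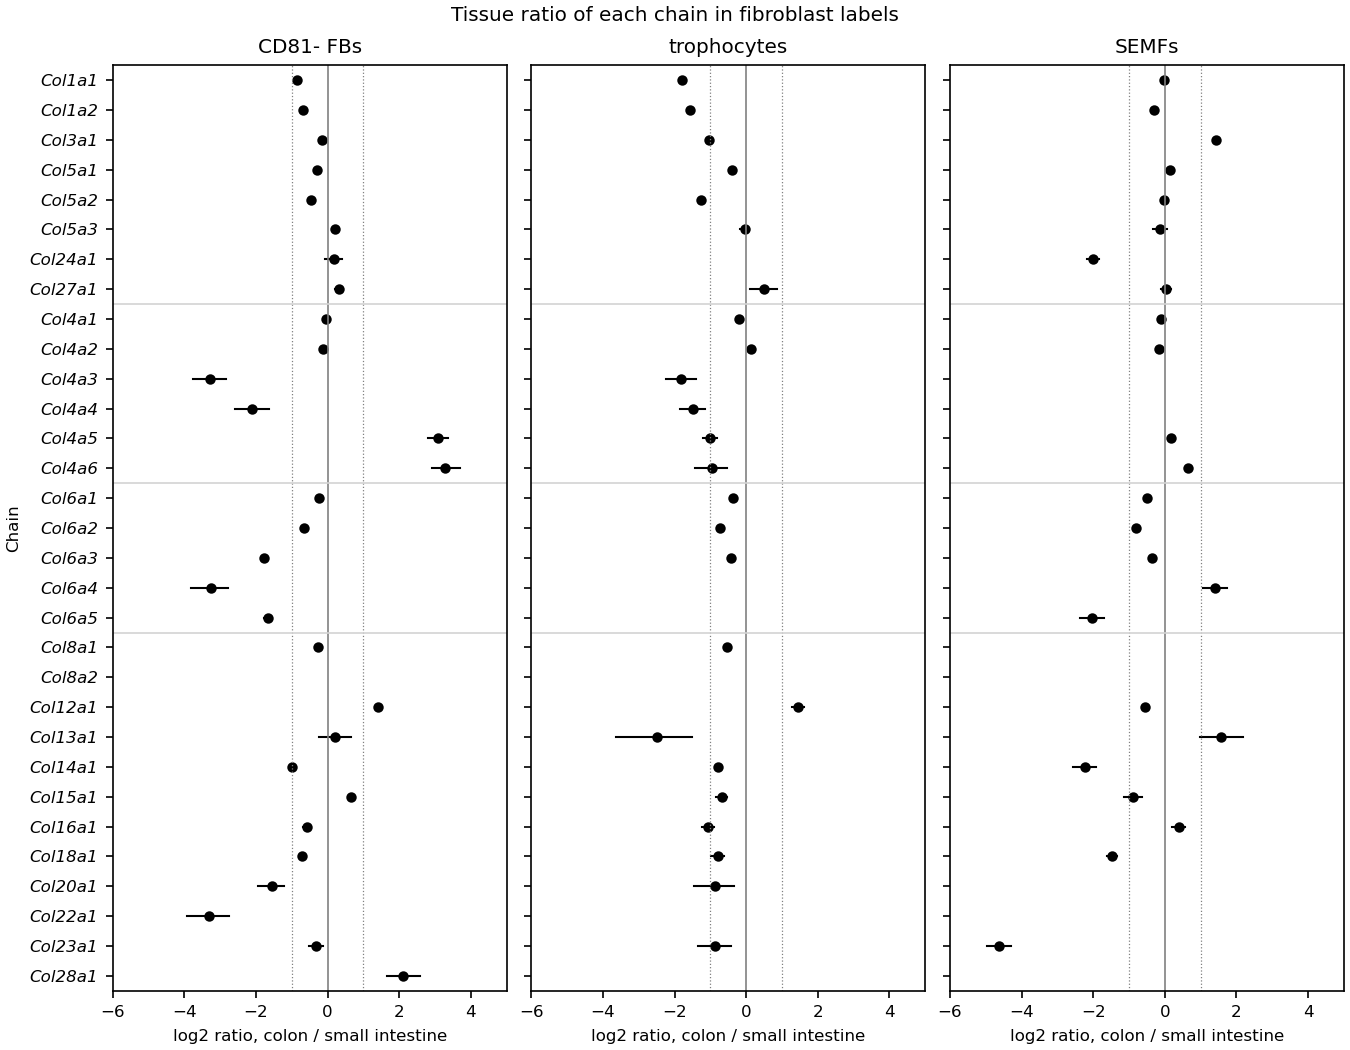
Log2 ratio of colon over small intestine (x axis) for each chain (y axis) in CD81- FBs, trophocytes and SEMFs (panels), with horizontal bars for the 95% interval of counting error. Col3a1 lies to the right in SEMFs at 1.44 and to the left in trophocytes at -1.05, and Col23a1 in SEMFs is the leftmost chain at -4.63.

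The type IV chains fell into 3 pairs by gene position and by label. The genes of each pair lie head to head: Col4a1 and Col4a2 on chromosome 8 overlap by 22 bases, Col4a3 and Col4a4 on chromosome 1 have 71 bases between them, and Col4a5 and Col4a6 on chromosome X have 1308. Over the 12 combinations of label and library, the levels of each pair had Spearman's rho of 0.94, 0.80 and 0.90 in that order, given as a description of points that share libraries and depth. Col6a1 and Col6a2, neighbours on the same strand of chromosome 10, had 0.97, and the unlinked Col1a1 and Col1a2 had 0.89.

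Col4a1 and Col4a2, the chains of nearly all basement membranes, were present in every label and differed little by tissue. In CD81- FBs Col4a1 was at 716 CPM in colon and 744 CPM in small intestine, in trophocytes at 428 and 488 CPM, in SEMFs at 651 and 703 CPM, and in SMCs at 715 and 929 CPM. LECs held 416 and 451 CPM, and BECs 927 and 586 CPM (0.66, 0.46 to 0.86). Its log2 ratio with fibroblasts pooled was 0.02, the same as for Col4a2. The number of Col4a1 UMIs per Col4a2 UMI lay from 1.69 to 2.16 in the fibroblast labels and was higher in LECs, at 3.75 (3.06 to 4.64) in colon and 3.07 (2.90 to 3.24) in small intestine.

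Col4a5 and Col4a6, which pair in the membranes beneath some epithelia and around smooth muscle, were SEMF chains in both tissues. Their SEMF levels in colon and small intestine were 665 and 588 CPM for Col4a5 (0.18) and 348 and 220 CPM for Col4a6 (0.66). At least 1 Col4a5 UMI was found in 91.8% of colon and 86.8% of small intestinal SEMFs. With cells thinned to 1500 UMIs, and cells below that left out, the shares were 59.1% and 52.5%. Colon SEMFs had 1615 or more UMIs and small intestinal SEMFs 837 or more, so only small intestinal SEMFs were left out. For Col4a6 the shares were 75.7% and 54.6%, or 35.7% and 21.7% thinned. Outside SEMFs the pair differed by tissue. CD81- FBs held 53.6 CPM of Col4a5 in colon and 6.35 CPM in small intestine (3.08, 2.81 to 3.35), and 28.7 and 2.93 CPM of Col4a6 (3.29, 2.91 to 3.70). Trophocytes went the other way, with 41.9 and 83.8 CPM of Col4a5 (-1.0) and 8.64 and 16.9 CPM of Col4a6 (-0.97). The members of the pair thus had the same sign in each fibroblast label. Pooled over fibroblasts, Col4a6 was 1 of the 2 chains past 2-fold higher in colon, at 1.06, and dropped to 0.69 with equal weights.

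Other SEMF transcripts were also seen under other labels in both tissues. Colon CD81- FBs held Col4a5 and Col4a6 at 8.06% and 8.24% of the SEMF level and small intestinal CD81- FBs at 1.08% and 1.33%. Among the 8 SEMF markers, the values in CD81- FBs ran from 1.81% (Sox6, a transcription factor of these cells) to 64.6% (Dll1, a Notch ligand) in colon, with a median of 14.6%. In small intestine they ran from 0.279% (Sox6) to 625% (Dll1, which is not highest in SEMFs there), with a median of 12.2%. Pdgfra, Sox6, Bmp5 and Bmp7 had the larger share in colon, as for Bmp7, a signal made by SEMFs, at 14.4% and 1.92%. F3, Dll1, Foxl1 and Nrg1 had the larger share in small intestine, as for Nrg1 at 14.7% in colon and 98.8% in small intestine. The Col4a5 UMIs per Col4a6 UMI were 1.87 (1.71 to 2.05) in colon CD81- FBs and 1.91 (1.82 to 2.01) in colon SEMFs. Trophocytes had 4.85 and 4.96 in the 2 tissues. Colon LECs, with 33.8 CPM of Col4a5, had 1.80 (1.01 to 3.28), and colon SMCs, with 55.7 CPM, had 1.95 (1.14 to 3.43). Small intestinal CD81- FBs had 2.17 (1.58 to 3.01), where small intestinal SEMFs held 3837 Col4a5 UMIs and 1433 Col4a6 UMIs. The part of RNA from SEMFs in these levels was not tested.

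The upstream windows of Col4a5 and Col4a6 are shown because these neighbours were both at least 2 times higher in SEMFs than in any other label in each tissue. Both are from RefSeq on GRCm38.p6, read on the strand of the gene: chrX:141475169-141475384 on the plus strand, 216 bases, and chrX:141474077-141474326 on the minus strand, 250 bases. Capitals mark CCAAT in the first and CCGCCC, the reverse complement of GGGCGG, in the second.
Col4a5: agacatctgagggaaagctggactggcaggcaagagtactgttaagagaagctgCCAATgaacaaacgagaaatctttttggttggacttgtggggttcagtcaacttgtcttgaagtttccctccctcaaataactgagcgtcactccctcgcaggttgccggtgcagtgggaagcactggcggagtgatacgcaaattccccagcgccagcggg
Col4a6: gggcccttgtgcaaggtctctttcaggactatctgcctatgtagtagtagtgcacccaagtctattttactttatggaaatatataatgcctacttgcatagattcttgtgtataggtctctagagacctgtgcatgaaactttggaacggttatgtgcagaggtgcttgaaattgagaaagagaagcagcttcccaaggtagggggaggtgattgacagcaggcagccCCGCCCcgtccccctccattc
CCAAT and GGGCGG occur on either strand in 33.8% and 33.0% of the windows of all genes, and in 11 and 20 of the 32 collagen windows.

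Col4a3 and Col4a4, chains best known from the kidney filter, were scarce and leaned to trophocytes. Col4a3 was at 8.64 CPM in colon trophocytes and 30.5 CPM in small intestinal trophocytes (-1.82, -2.25 to -1.41), and Col4a4 at 12.4 and 34.8 CPM (-1.49). In CD81- FBs Col4a3 was at 1.82 and 17.8 CPM (-3.29) and Col4a4 at 2.02 and 8.73 CPM (-2.11). Both were lower in colon in these labels. The pair shared cells: small intestinal trophocytes with a Col4a3 UMI (262 cells) held Col4a4 at 76.2 CPM and those without (1651 cells) at 27.5 CPM, and in colon the values were 73.7 CPM (44 cells) and 8.81 CPM (831 cells). Cells with a Col4a3 UMI were also deeper, with median UMIs of 8463.5 against 7689 in small intestine and 8013.5 against 7148 in colon. With the Y-only cells of colon alone, the trophocyte ratio was -1.09 for Col4a3 and -0.76 for Col4a4, and with the Xist-only cells it was -2.66 and -2.24.

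**Figure D4:**
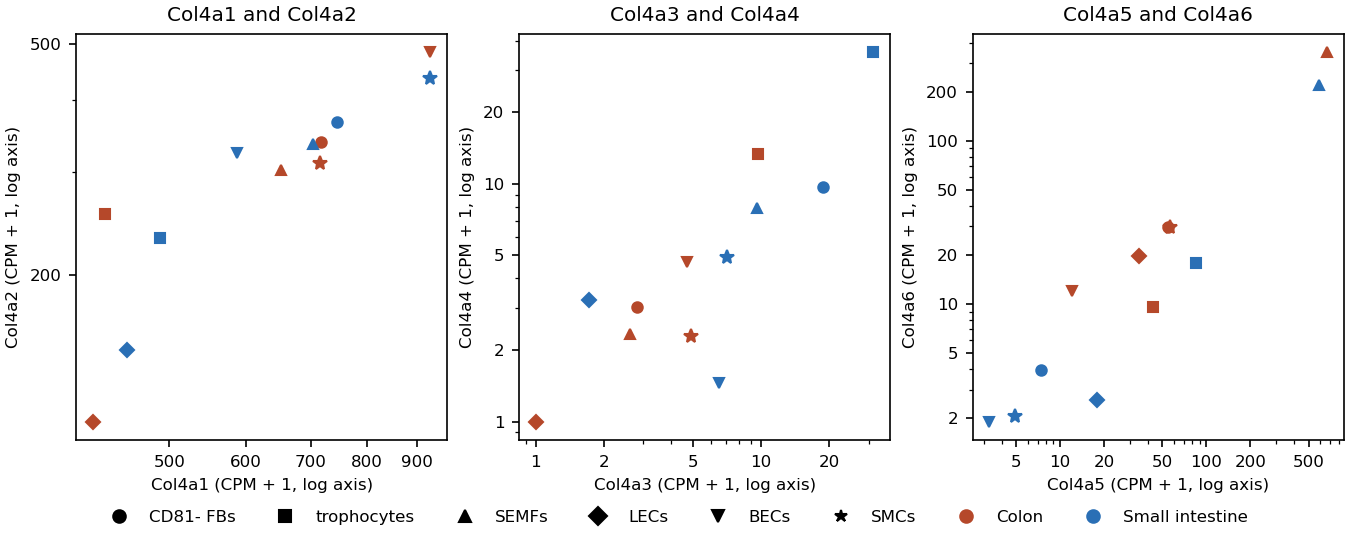
CPM + 1 of the 2 chains of each head-to-head type IV pair plotted against each other on log axes, 1 point per cell label (symbol) and tissue (colour). Col4a5 and Col4a6 are highest in SEMFs of both tissues, at 665 and 348 CPM in colon, Col4a3 and Col4a4 are highest in small intestinal trophocytes, and Col4a1 and Col4a2 lie within a narrow range.

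Type VI chains were highest in SEMFs and lower in colon in all 3 fibroblast labels. The summed class was at 2896 and 4274 CPM in SEMFs (-0.56), 1750 and 3069 CPM in CD81- FBs (-0.81) and 1761 and 2436 CPM in trophocytes (-0.47). It made up 21.9% of collagen UMIs in colon SEMFs and 31.1% in small intestinal ones. Col6a1, which with Col6a2 and Col6a3 forms the common type VI filament, was at 1379 and 1956 CPM in SEMFs (-0.50), 869 and 1028 CPM in CD81- FBs (-0.24) and 625 and 802 CPM in trophocytes (-0.36). Col6a2 gave log2 ratios of -0.79, -0.67 and -0.74 in these labels.

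Col6a3, the longest of the common chains, differed from its partners in CD81- FBs. It was at 303 CPM in colon and 1042 CPM in small intestine (-1.78, -1.82 to -1.74), against 629 and 803 CPM in SEMFs (-0.35) and 787 and 1052 CPM in trophocytes (-0.42). Colon CD81- FBs thus lay below both other fibroblast labels, and small intestinal CD81- FBs beside the trophocytes. Per Col6a1 UMI, CD81- FBs held 0.348 Col6a3 UMIs in colon and 1.01 in small intestine, where the values of trophocytes were 1.26 and 1.31 and those of SEMFs 0.456 and 0.411. The pooled fibroblast ratio of -1.18 was -0.75 with equal weights.

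The alternative type VI chains, which can take the place of Col6a3, had patterns of their own. Col6a5 was at 43.5 and 139 CPM in CD81- FBs (-1.67), 13.2 and 53.8 CPM in SEMFs (-2.03) and 15.5 and 57.7 CPM in SMCs (-1.89), lower in colon each time. Col6a4 was at 39.0 and 14.9 CPM in SEMFs (1.39), but at 1.5 and 14.4 CPM in CD81- FBs (-3.27) and 37.6 and 80.5 CPM in SMCs (-1.10). Its highest label was SEMFs in colon and SMCs in small intestine.

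Among the other chains, those that coat fibrils differed between the tissues in both directions. Col14a1, which binds the surface of type I fibrils, was a trophocyte chain at 1207 and 2067 CPM (-0.78), and was at 447 and 883 CPM in CD81- FBs (-0.98). In SEMFs it was at 14.3 and 67.3 CPM (-2.24) and in SMCs at 28.5 and 229 CPM (-3.01). Col12a1, its close relative, was higher in colon in CD81- FBs (398 and 150 CPM, 1.41), trophocytes (89.2 and 32.6 CPM, 1.45) and SMCs (474 and 228 CPM, 1.06), and lower in colon in SEMFs (562 and 823 CPM, -0.55). Its pooled fibroblast ratio of 0.83 was 1.01 against the median gene and 0.06 with equal weights. In colon SMCs the Y-only cells held 328 CPM and the Xist-only cells 705 CPM, and with the Y-only cells alone the SMC ratio was 0.52.

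The further fibril-associated chains were mostly lower in colon. Col16a1 was at 57.2 and 119 CPM in trophocytes (-1.06, or -0.95 against the median gene), 63.0 and 94.6 CPM in CD81- FBs (-0.59) and 86.3 and 66.1 CPM in SEMFs (0.39). Col20a1 was at 3.72 and 11.0 CPM in CD81- FBs (-1.56) and 5.5 and 10.1 CPM in trophocytes (-0.87). Col22a1 was at 1.13 and 11.3 CPM in CD81- FBs, a log2 ratio of -3.31 (-3.93 to -2.74). Of these values, that of Col16a1 in SEMFs was the one above zero.

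Col28a1, a chain of little-known role, was the second chain past 2-fold higher in colon with fibroblasts pooled, at 7.11 and 1.44 CPM (2.31, 1.90 to 2.73), and in CD81- FBs at 10.3 and 2.38 CPM (2.11). Within colon CD81- FBs it was at 6.58 CPM in Y-only cells and 13.8 CPM in Xist-only cells, both above the small intestinal level. Col8a1, a short chain of network type, was a trophocyte chain at 346 and 501 CPM (-0.54), with 64.3 and 76.7 CPM in CD81- FBs (-0.26). Its pooled ratio of -1.14 was -0.49 with equal weights, and neither of these labels reached 2-fold. Col8a2, its partner chain, was at 1.45 and 2.11 CPM in pooled fibroblasts.

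Col15a1 and Col18a1 belong to basement membrane zones and carry the inhibitor fragments restin and endostatin at their ends. Col15a1 was at 491 and 314 CPM in CD81- FBs (0.65), 74.0 and 119 CPM in trophocytes (-0.69), 28.2 and 52.3 CPM in SEMFs (-0.89) and 423 and 184 CPM in BECs (1.20, or 0.85 as a mean over cells). Col18a1 was highest in LECs in colon, at 338 CPM against 123 CPM in small intestinal LECs (1.46, 1.29 to 1.63). Every other label with enough UMIs had less Col18a1 in colon. In CD81- FBs it was at 164 and 269 CPM (-0.71), in trophocytes at 44.1 and 76.9 CPM (-0.80), in SEMFs at 80.3 and 221 CPM (-1.46) and in SMCs at 36.3 and 186 CPM (-2.36).

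Col23a1, a chain anchored in the plasma membrane, was the chain with the largest tissue difference in any fibroblast label. SEMFs held 10.8 CPM in colon and 266 CPM in small intestine, a log2 ratio of -4.63 (-4.97 to -4.30). At least 1 UMI was found in 6.33% of colon SEMFs and 48.2% of small intestinal SEMFs, or 1.63% and 26.5% at 1500 UMIs per cell. Its highest label was LECs in both tissues, at 368 CPM in colon and 1172 CPM in small intestine (-1.67, -1.82 to -1.53), where 67.7% and 87.9% of cells had a UMI (40.1% and 71.4% thinned). The chain was thus lower in colon in LECs and SEMFs, the labels with the most of it in small intestine. In colon, CD81- FBs and not SEMFs came next to LECs. CD81- FBs held 17.3 and 21.6 CPM (-0.32) and trophocytes 7.85 and 14.4 CPM (-0.87). BECs had 0 UMIs in colon, which allows up to 11.1 CPM at 3 counts, and 110 CPM in small intestine. SMCs had 2 UMIs in colon (2.59 CPM) and 36.4 CPM in small intestine.

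Markers of LECs were measured under the same labels. In small intestinal SEMFs the 6 markers lay at 0.149% to 0.323% of their LEC level and Col23a1 at 22.7%, and in colon SEMFs the markers reached at most 0.370% and Col23a1 2.92%. In small intestinal BECs the markers lay at 5.30% to 9.47% of the LEC level and Col23a1 at 9.38%, inside that range. The part of lymphatic RNA in these levels was not tested. The pericyte list summed to 1243 CPM in small intestinal SEMFs, where 4 of its 6 genes were highest. In colon SEMFs it summed to 154 CPM, with 5 of the 6 genes listed and 1 highest there. Small intestinal SMCs held 1273 CPM of it. The part of pericyte RNA in the Col23a1 level, and in the tissue ratios of other chains in SEMFs, was not tested.

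The Col23a1 upstream window is shown because of this difference. It is the RefSeq window on GRCm38.p6, plus strand, chr11:51289670-51289919, 250 bases, with CCGCCC, the reverse complement of GGGCGG, in capitals.
Col23a1: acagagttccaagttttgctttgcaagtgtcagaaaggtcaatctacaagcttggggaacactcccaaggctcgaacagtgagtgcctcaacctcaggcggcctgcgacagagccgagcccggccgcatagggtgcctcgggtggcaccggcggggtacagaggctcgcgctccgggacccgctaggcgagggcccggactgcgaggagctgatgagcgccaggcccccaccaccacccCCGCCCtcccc

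Col13a1, another membrane-spanning chain, marked BECs in both tissues, at 167 CPM in colon and 92.1 CPM in small intestine (0.86, 0.36 to 1.33). It was found in 41.5% of colon and 21.8% of small intestinal BECs, or 18.9% and 12.7% at 1500 UMIs per cell. All 45 of its UMIs in colon BECs lay in the 45 cells with the capillary label, with 0 in the 4 arterial and 4 venous cells. SEMFs held 14.5 and 4.91 CPM (1.57, or 0.94 with Xist-only colon cells) and trophocytes 1.41 and 7.92 CPM (-2.49), while CD81- FBs were level at 4.21 and 3.67 CPM (0.20). Within small intestinal BECs, the 114 cells with a Col13a1 UMI held Col4a1 at 1279 CPM and Col15a1 at 426 CPM, against 419 and 126 CPM in the 410 cells without. In colon the 22 cells with a UMI held 1459 CPM of Col4a1 and 541 CPM of Col15a1, against 623 and 355 CPM in the other 31. The cells with a UMI were not the deeper ones: their median was 3195.5 UMIs against 3744 in small intestine, and 3553 against 3936 in colon. The colon comparison mixes vessel labels, with Col4a1 at 1061 CPM in capillary, 270 CPM in arterial and 167 CPM in venous cells.

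Ranked across the 6 labels, 29 chains had at least 100 UMIs in each library. In colon, 11 of 29 were at least 2 times higher in 1 label than in the next, where 13.2% of all genes were, and in small intestine 11 of 29, where 14.0% were. In both tissues Col4a4, Col8a1 and Col14a1 were such trophocyte chains, Col4a5, Col4a6 and Col24a1 SEMF chains, Col23a1 the LEC chain and Col13a1 the BEC chain. Colon added Col4a3 (trophocytes), Col18a1 (LECs) and Col28a1 (CD81- FBs). Small intestine added Col12a1 (SEMFs), Col6a4 (SMCs) and Col6a5 (CD81- FBs). Among 28 chains ranked in both libraries, 18 had the same highest label, beside 46.1% of all genes ranked in both.

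**Figure D5:**
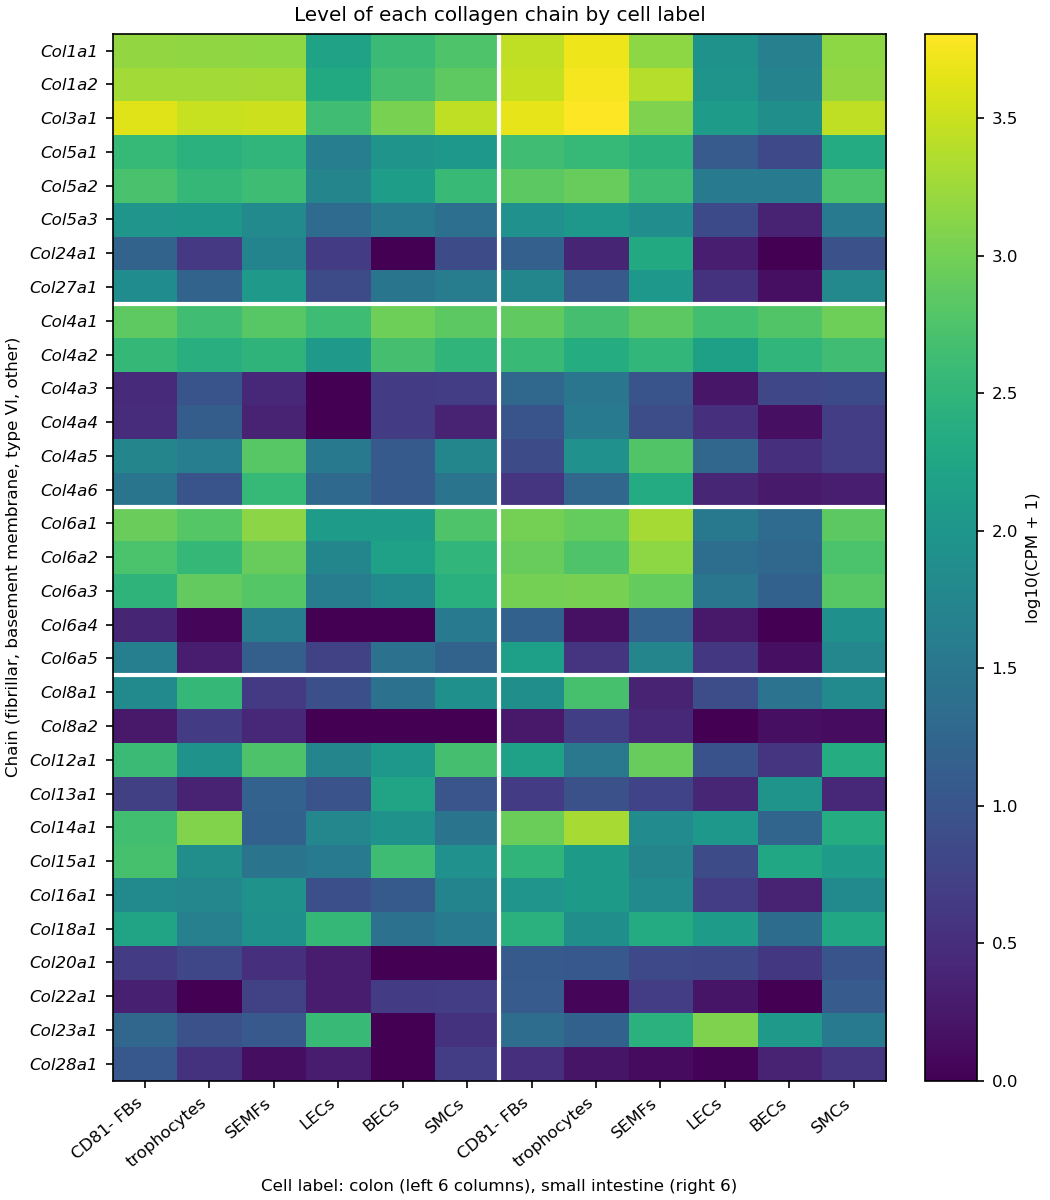
Log10(CPM + 1) of each collagen chain (rows, grouped by class) in the 6 labels of colon (left) and small intestine (right). Col4a5 and Col4a6 stand out in the SEMF columns, Col14a1 and Col8a1 in the trophocyte columns and Col13a1 in the BEC columns, and Col23a1 is highest in the LEC columns and reaches 266 CPM in small intestinal SEMFs.

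Between tissues, the counts past 2-fold differed by label. In CD81- FBs, 4 of 30 chains were higher in colon (6.46% of all genes) and 7 lower (10.4%). Trophocytes had 1 of 25 higher (4.23%) and 8 lower (8.24%), and SEMFs 3 of 24 higher (5.36%) and 5 lower (15.1%). SMCs had 1 of 21 higher (3.37%) and 9 lower (17.3%). More chains were thus lower than higher in colon in each of these labels, and the same held for all genes. The endothelial labels ran the other way, with 9 of 16 chains higher in colon LECs (3.45%) and 1 lower (15.4%), and 5 of 9 higher in colon BECs (3.10%) and 1 lower (19.6%). Of 28 chains compared in 2 or more labels, 8 were past 2-fold in opposite directions in 2 of them, where 2.89% of all genes were.

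Of the 9 chains higher in colon LECs, 3 were fibrillar, 2 type VI, 1 of the basement membrane and 3 others, and of the 5 in BECs 4 were fibrillar. Fibrillar chains summed to 918 CPM in colon LECs and 361 CPM in small intestinal LECs (1.35), and to 2240 and 218 CPM in BECs (3.36). Genes of the pan-fibroblast list (Dcn, Lum, Pdgfra, Dpt, Serpinf1 and Mfap4) moved the same way: they summed to 1148 and 537 CPM in LECs and 2648 and 264 CPM in BECs, and none was at 0. In colon LECs these 6 genes lay at 8.65% to 14.5% of their pooled fibroblast level, and Col1a1, Col1a2 and Col3a1 at 10.2%, 10.6% and 11.5%. In small intestinal LECs the list lay at 2.29% to 2.76%, and the 3 chains at 2.62%, 2.36% and 2.61%. In BECs the list lay at 12.7% to 70.7% in colon and 1.06% to 13.4% in small intestine, and no fibrillar chain of 8 lay above it in either. The upper end in colon BECs was set by Mfap4, with the other 5 genes at 12.7% to 28.6%. Col3a1, Col5a3 and Col27a1 lay above these other genes, at 28.7%, 41.0% and 43.5%, and Col1a1, Col1a2, Col5a1 and Col5a2 lay among them. The upper end in small intestinal BECs was set by Serpinf1, with the other 5 genes at 1.06% to 1.45% and Col5a2 at 5.36%. In LECs, 2 of 8 fibrillar chains lay above the list in colon (Col5a3 and Col24a1) and 4 of 8 in small intestine (Col5a1, Col5a2, Col5a3 and Col27a1), with Col5a2 at 4.93% there. The share of all genes above the list was not counted in either label.

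A few cells carried much of this signal. In the 53 colon BECs, 1 cell with 23984 UMIs held 325 of the 604 fibrillar UMIs (53.8%), and without it the fibrillar sum was 1136 CPM. All chains in BECs were at 4891 and 1654 CPM, a log2 ratio of 1.56, which was 1.18 without that cell, chosen after its values were seen, and its counterpart in the small intestine. The ratio was 0.32 without cells holding a Pdgfra UMI, and 0.36 without the 6% of cells with the most UMIs. In LECs all chains were at 2600 and 2506 CPM (0.05), a ratio that turned to -0.28 without cells holding a Pdgfra UMI. The median endothelial cell held few fibrillar UMIs or none, at 0.0171% and 0% of its UMIs in LECs and 0.00986% and 0% in BECs.

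Several chains lay above the range of the pan-fibroblast list in endothelial cells of both tissues. In BECs these were Col4a1, Col4a2, Col4a3, Col13a1 and Col15a1, although Col4a3 rested on 1 UMI in colon and 12 in small intestine. In LECs, 11 of 29 chains lay above it in colon and 24 of 29 in small intestine, where the list spans a narrow range. How many of all genes lay above it was not counted, so these counts do not set collagen chains apart. The LEC chains above it in both tissues were Col4a1, Col4a2, Col4a5, Col4a6, Col5a3, Col6a5, Col13a1, Col18a1, Col20a1 and Col23a1. For the SEMF chains Col4a5 and Col4a6, pooled fibroblasts are a diluted reference. Relative to SEMFs they lay at 5.08% and 5.40% in colon LECs, where the 8 SEMF markers had a median of 4.54%. In small intestinal LECs they lay at 2.85% and 0.731%, beside a marker median of 1.27%. The part of SEMF RNA in these LEC levels was not tested. In colon LECs, Col20a1 rested on 1 UMI, Col6a5 on 5 and Col13a1 on 9. Basement membrane chains were the largest class in small intestinal BECs, at 55.5% of collagen UMIs, and the other chains in small intestinal LECs, at 57.3%, most of them Col23a1.

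SMCs held fibrillar chains at 4645 and 6608 CPM. Above the range of the pan-fibroblast list lay 19 of 29 chains in colon and 7 of 29 in small intestine. The share of all genes above that range was not counted, so these counts do not set collagen chains apart. That list was itself at 13.6% to 33.0% of the fibroblast level in colon SMCs and 17.1% to 90.3% in small intestinal SMCs, and summed to 2335 and 9155 CPM. The upper end in small intestinal SMCs was set by Mfap4, with the other genes of the list at 17.1% to 46.2%. The counts of the 2 tissues thus rest on unlike limits and cannot be compared. Chains between these and Mfap4 included Col3a1 at 58.1%, Col5a2 at 75.1% and Col6a1 at 63.6%, while Col1a1 and Col1a2 were at 42.1% and 40.2%. The part of the list in the lower SMC chains of colon was not tested. Against the median gene, the SMC ratios of Col1a2 (-0.79), Col5a1 (-0.75) and Col6a4 (-0.83) fell short of 2-fold. Col4a1, Col4a2, Col6a4, Col12a1 and Col27a1 were above the range in both tissues.

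The enzymes and helpers that make collagen were past 2-fold about as often as genes in general. All 36 listed genes had at least 100 UMIs in pooled fibroblasts, of which 1 was at least 2-fold higher and 4 were at least 2-fold lower in colon (6.88% and 9.47% of all genes), with a median log2 ratio of -0.22. Among the 15 genes of proline and lysine modification the median was -0.09, with P4ha3, a prolyl hydroxylase subunit, highest at 2.13 and 0.527 CPM (2.01) and Colgalt2, a galactosyltransferase, lowest at 13.6 and 27.8 CPM (-1.04). Among the 8 genes of chaperoning and export the median was -0.41, from Fkbp10, a chaperone of the endoplasmic reticulum, at 63.6 and 48.0 CPM (0.41) to Sparc, a collagen-binding secreted protein, at 2169 and 4471 CPM (-1.04). Propeptide removal is the cleavage that lets fibrils form. Among its 8 genes the median was -0.78, from the protease gene Adamts3 at 17.2 and 13.7 CPM (0.33) to Tll1 at 0.415 and 2.04 CPM (-2.29). The 5 cross-linking genes had a median of -0.01, from Lox (67.1 and 62.3 CPM, 0.11) to Loxl3 (18.9 and 21.9 CPM, -0.22). In SEMFs the cross-linking median was 0.77, and Lox was at 28.9 and 9.66 CPM (1.58).

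Within colon, most chains in the Y-only cells were within 2-fold of the Xist-only cells. In pooled fibroblasts 1 of 28 chains compared, Col28a1, differed by 2-fold or more, where 0.678% of all genes did, with a log2 ratio of Y-only over Xist-only cells of -1.04 and a median of -0.07 over the 28. In SEMFs 0 of 20 chains did (0.643% of all genes), and in trophocytes 0 of 18 (1.30%).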

How the data were processed

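The authors deposited raw UMI counts per gene and cell for each library, the natural log values that Seurat-style scaling gives (1 plus the UMIs times 10000 over the UMIs of the cell), and 1 label per cell. The submitters' processing notes name Cell Ranger 7.1.0, Seurat 4 and the mm10 build. The natural log values of the 37 chains, as deposited, equalled those computed from the raw counts within 1e-06. Cell filters, the naming of cells and doublet removal are not given in the sources used here, and no cell was removed here. The libraries shared 21 cell barcodes.

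Raw counts were summed over the cells of a label and divided by that label's total to give CPM. Labels with 50 or more cells in both libraries were compared. Intervals are exact Poisson intervals for CPM and exact conditional binomial intervals for ratios at 95%, checked on simulated counts, and cover counting error alone. A chain counted as higher or lower from a 2-fold ratio of CPM with at least 100 UMIs over both libraries. No value of 0 was given a ratio without a floor of 3 counts. Each chain that reached 100 UMIs in a compared label is named, and of each pathway list the genes with the largest and smallest ratio. The members and lists were chosen with earlier results of these data known. Alternatives changed the scaling, the cells and the weights. Positions come from GENCODE vM21 on GRCm38 (mm10) and upstream windows from RefSeq on GRCm38.p6, which held 30 of the chains. Python 3.11.15, numpy 2.4.6, scipy 1.17.1 and pandas 2.3.3 were used.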

Additional observations from a re-analysis of the deposited data

Results flagged for a closer look

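The ratio of colon over small intestine of 8 chains was past 2-fold in opposite directions in 2 labels, out of 28 compared in 2 or more labels, where 2.89% of all genes were. The difference between the labels was not tested, since each tissue had 1 library. Between BECs and trophocytes the log2 ratios differed by 4.89 for Col1a1 (3.09 and -1.80), 4.83 for Col1a2 (3.25 and -1.58), 4.88 for Col3a1 (3.83 and -1.05) and 3.03 for Col5a2 (1.78 and -1.26). The BEC values rest on 35 to 294 UMIs in colon, of which 1 cell held 55.8% for Col1a1, 43.8% for Col1a2, 55.8% for Col3a1 and 60.0% for Col5a2. Without the 6% of BECs with the most UMIs, the BEC ratio was -1.63 for Col1a1 and -0.50 for Col5a2. Col5a1 differed by 2.87 between LECs (1.84) and SMCs (-1.03), and Col18a1 by 3.82 between the same labels (1.46 and -2.36). Col6a4 differed by 4.66 between SEMFs (1.39) and CD81- FBs (-3.27), and Col13a1 by 4.05 between SEMFs (1.57) and trophocytes (-2.49).

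Collagen signal was also present outside the compared genes and labels. Col9a1 had 26 UMIs in the small intestinal library, 17 of them in trophocytes. Col19a1 had 10 UMIs there, 5 of them in SMCs, and Col26a1 had 37, with 35 in LECs. All chains summed to 6921 CPM in the 8 colon cells labelled pericytes (240 UMIs), to 8252 CPM in the 4 colon cells labelled proliferating (253 UMIs) and to 5032 CPM in the 24 small intestinal ones (1105 UMIs).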

How the results depend on the processing

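Most single-chain ratios kept their direction: of 156, 144 did against the median gene, 156 with collagen left out of the totals, 152 without the 6% of cells with the most UMIs, 145 with Y-only and 147 with Xist-only colon cells, and 153 of 155 as a mean over cells. Of the 67 past 2-fold, 60, 67, 61, 57 and 63 stayed past it in that order, and 62 of 66 as a mean over cells. With the fibroblast labels weighted equally, 8 of the 13 pooled fibroblast ratios past 2-fold stayed past it. No paired analysis was possible because each tissue has 1 library.

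In pooled fibroblasts the log2 ratios of the fibrillar, basement membrane, type VI and other chains (-0.70, 0.09, -0.62 and -0.52 as reported) were -0.53, 0.26, -0.44 and -0.34 against the median gene, -0.78, 0.036, -0.72 and -0.58 with Y-only colon cells, and -0.62, 0.16, -0.52 and -0.42 with Xist-only ones. As a mean over cells the first 3 were -0.70, 0.042 and -0.70. With equal weights the fibrillar, basement membrane and other chains were at -0.64, -0.011 and -0.55. Without the cells with the most UMIs, fibrillar and type VI chains were at -0.73 and -0.65. With collagen left out of the totals, fibrillar chains were at -0.71. The count of chains past 2-fold higher in colon was 1 in place of 2 with Xist-only cells, a mean over cells, equal weights or a minimum of 1000 UMIs, and that minimum left 7 in place of 11 lower ones, where equal weights left 8.

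For all chains in CD81- FBs, trophocytes, SEMFs, LECs, BECs and SMCs, the values against the median gene were -0.21, -0.99, 0.28, 0.32, 1.86 and -0.23. Without the cells with the most UMIs they were -0.45, -1.14, -0.073, -0.20, 0.36 and -0.54, and with Y-only cells -0.55, -1.07, -0.094, -0.14, 0.32 and -0.45. With Xist-only cells CD81- FBs, trophocytes, SEMFs and BECs were at -0.32, -1.11, 0.015 and 1.05. As a mean over cells CD81- FBs, trophocytes, SEMFs, LECs and BECs were at -0.48, -1.12, -0.12, -0.11 and 0.65. Trophocytes were at -1.12 with collagen left out of the totals. Without cells holding Pdgfra UMIs, LECs were at -0.28 and BECs at 0.32, and BECs were at 1.18 without the cell richest in fibrillar UMIs, an alternative chosen after seeing the data. SMCs with at least 2 of 4 muscle markers were at -0.46.

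In BECs 5 single-chain values reversed. Without the cells with the most UMIs, Col1a1 was at -1.63 and Col5a2 at -0.50. With Y-only cells, Col1a2 was at -0.50, Col3a1 at -2.12 and Col5a2 at -1.11; these rest on 11 colon cells. The cause was not tested. The colon BEC values come from 53 cells.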
